A study of Mus musculus with 4 samples.

Results

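The L1 and NCAM families of adhesion molecules were examined at the level of their transcripts and of their alternative exons in the E14.5 mouse cortex with and without *Qk*. The 8 genes *L1cam*, *Nrcam*, *Nfasc*, *Chl1*, *Ncam1*, *Ncam2*, *Cntn1* and *Cntn2* were taken by gene symbol from 23038 genes, and 30 of the 38240 alternative splicing events in the data belonged to them. *Qk* encodes Qki, an RNA binding protein of the STAR family with a nuclear isoform, Qki5, that acts in pre-mRNA splicing. Messenger RNA of 2 control embryos (*Qk* fl/fl) was compared with that of 2 *Qk cKO* littermates (*Nestin*-Cre; *Qk* fl/fl), all at E14.5. Both groups therefore carry the floxed *Qk* allele, and the sample labels call the controls wild type. *Nestin*-Cre drives recombination in neural progenitors and hence in their progeny, and not, in the main, in the vessels, blood cells and meninges of the same tissue. Since whole cortices were used, fewer cells of a type and less RNA per cell cannot be told apart.

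L1cam, Nrcam, neurofascin (*Nfasc*) and Chl1 form the L1 family, transmembrane proteins with immunoglobulin and fibronectin type III domains whose cytoplasmic tails bind ankyrin and through it the spectrin skeleton. Ncam1 and Ncam2 are the neural cell adhesion molecules, and Ncam1 is the main carrier of polysialic acid in the developing brain. Contactin-1 (*Cntn1*) and contactin-2 (*Cntn2*, also called TAG-1) are held in the membrane by a lipid anchor and bind members of the L1 family in cis or in trans. In the growing cortex these molecules serve axon outgrowth, bundling and guidance, and small alternative exons change their ectodomains and tails.

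Each library held between 37942046 and 42994832 tags in genes. The junction of *Qk* exon 2, which Cre removes, with exon 3 held 111 and 129 tags per 100 tags of the exon 3 to exon 4 junction in the controls and 7.02 and 8.19 in *Qk cKO*. *Qk* itself, counted over all its exons, was higher in *Qk cKO*, with an RPKM of 21.1 and 21.7 against 32.5 and 34.2. *Xist* was at 57.1 and 64.5 RPKM in replicate 1 of each group and at 0.0265 and 0.00951 in replicate 2, where the Y-linked *Eif2s3y* was at 29.1 and 35.5, so both sexes stood in each group. Radial glia markers summed to 1633 and 1512 RPKM in the controls and 1329 and 1267 in *Qk cKO*, with *Fabp7* and *Slc1a3* called lower of the 8 genes listed. Most of the difference in this sum lay in *Fabp7*, at 989 and 901 RPKM against 703 and 667. *Pax6*, *Hes1*, *Nes* and *Vim* had log2 fold changes of 0.08, 0.08, 0.04 and -0.01. *Sox2* and *Hes5* were lower in both *Qk cKO* embryos than in both controls, with log2 fold changes of -0.29 and -0.19, and were not called. Markers of cortical neurons summed to 1366, 1403, 1362 and 1300 RPKM in the same order, and none of the 8 was called. Erythroid markers summed to 541 and 587 RPKM in the controls and 809 and 613 in *Qk cKO*, with the haemoglobin gene *Beta-s* called higher, and of 4 microglia markers *Ctss* was called lower. Markers of the ventral diencephalon and hypothalamus summed to 11.3 and 18.1 RPKM in the controls and 8.27 and 7.67 in *Qk cKO*, and 6 of the 8 were called lower. The paper's list of changed transcripts from the same libraries holds *Six6*, *Nr5a1*, *Pomc*, *Sox14*, *Nkx2-2* and *Irx3*, so this count is not independent of it. *Six6*, *Nr5a1*, *Sox14* and *Nkx2-2* were under 1 RPKM in every sample and higher in control 2 than in control 1. The uncalled *Nkx2-1* was at 6.79 and 7.26 RPKM in the controls.

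The exons that carried the largest differences lie in *Nrcam*, on the plus strand of chromosome 12 (mm10, positions 44328885 to 44601964). Below, each exon is in capitals between the last and first 15 bases of the neighbouring exons, from the GENCODE transcripts. The *Nfasc* exon is shown because it has the same length as the shortest *Nrcam* exon, and 9 of their 18 positions hold the same base.
Nrcam 18 nt exon: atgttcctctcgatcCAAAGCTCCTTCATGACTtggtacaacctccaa
Nrcam 57 nt exon: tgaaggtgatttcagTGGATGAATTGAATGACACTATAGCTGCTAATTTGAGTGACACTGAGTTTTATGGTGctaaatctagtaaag
Nrcam 30 nt exon: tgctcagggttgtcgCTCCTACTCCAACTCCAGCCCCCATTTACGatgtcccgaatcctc
Nfasc 18 nt exon: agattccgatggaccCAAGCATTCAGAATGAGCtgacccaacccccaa

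The first question was whether the steady-state levels of the 8 transcripts differed between control and *Qk cKO*. None of the 8 was called by the quasi-likelihood test of edgeR (p below 0.01 and FDR below 0.1), while 110 of 18834 genes tested (0.584%) were. At an unadjusted p below 0.05 stood *Nrcam* and *Cntn1*, and DESeq2 and the exact test of edgeR called none of the 8 either. Levels are given as RPKM, tags scaled by transcript length and library size, which allows genes to be compared.

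*L1cam*, the founding member of its family, was the most abundant, at 88.7 and 94.6 RPKM in the controls and 88.5 and 87.9 in *Qk cKO*. Both *Qk cKO* values were just under the lower control, closer to it than the controls were to each other, with a log2 fold change of -0.04 ± 0.08 (SE; edgeR FDR = 0.913). *L1cam* is on the X chromosome, and the replicates differed in sex within each group.

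*Nrcam*, which joins axonal and guidance receptor complexes, was at 28.1 and 28.3 RPKM in the controls and at 32.1 and 31.8 in *Qk cKO*. Both *Qk cKO* embryos were above both controls. The log2 fold change was 0.19 ± 0.07 (SE; edgeR FDR = 0.338), so the higher level was not called.

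*Nfasc*, a component of the axon initial segment and the node, was at 30.4 and 31.9 RPKM against 30.3 and 32.1, and *Chl1*, the close homolog of L1, at 40.0 and 44.6 against 40.6 and 41.1. In both genes the groups overlapped. The log2 fold changes were 0.01 ± 0.07 and -0.04 ± 0.08 (SE).

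*Ncam1* was at 48.8 and 55.7 RPKM in the controls and 51.0 and 47.8 in *Qk cKO*, and *Ncam2*, the olfactory cell adhesion molecule, at 3.41 and 4.12 against 3.67 and 3.58. The groups overlapped in both. The log2 fold changes were -0.07 ± 0.08 for *Ncam1* and -0.04 ± 0.12 for *Ncam2* (SE).

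*Cntn2*, a marker of early corticofugal axons, was at 76.0 and 74.8 RPKM in the controls and 69.1 and 81.7 in *Qk cKO*, with the 2 controls between the 2 *Qk cKO* embryos. *Cntn1* was at 4.27 and 4.5 against 4.68 and 5.30, so that both *Qk cKO* embryos were higher. Its log2 fold change was 0.20 ± 0.09 (SE; edgeR FDR = 0.536) and was not called.

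**Figure D1:**
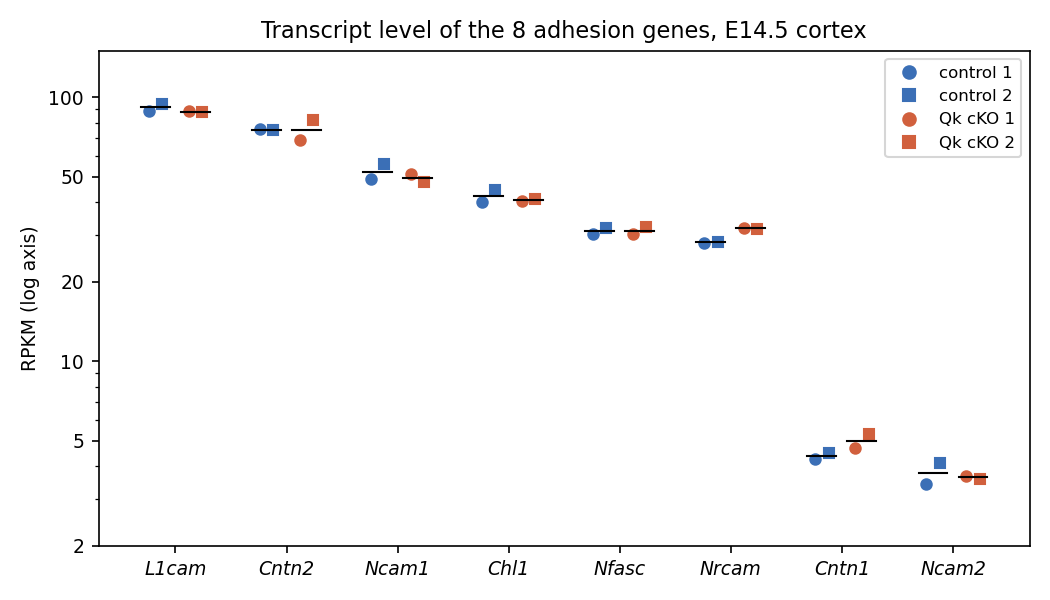
RPKM (log axis) of the 8 adhesion genes in the 2 control and 2 *Qk cKO* samples, with a line at each group's mean. *L1cam* and *Cntn2* are highest, *Cntn1* and *Ncam2* lowest, and the 2 colours separate within a gene only for *L1cam*, *Nrcam* and *Cntn1*.

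Ordered by level, *L1cam* was followed by *Cntn2*, *Ncam1*, *Chl1*, *Nfasc*, *Nrcam*, *Cntn1* and *Ncam2*. Over the 4 samples the ranges of neighbours in this order were separate except for *Nfasc* and *Nrcam*, which overlapped. The RPKM values of the groups did not overlap in 3 of the 8 genes, against 36.9% of all genes tested. With 2 samples a group, an exact permutation test cannot go below p = 0.333 (two-sided). The median absolute log2 fold change of the 8 was 0.0408, beside 0.0675 over the 7914 genes with a mean logCPM of at least 4.5.

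**Figure D2:**
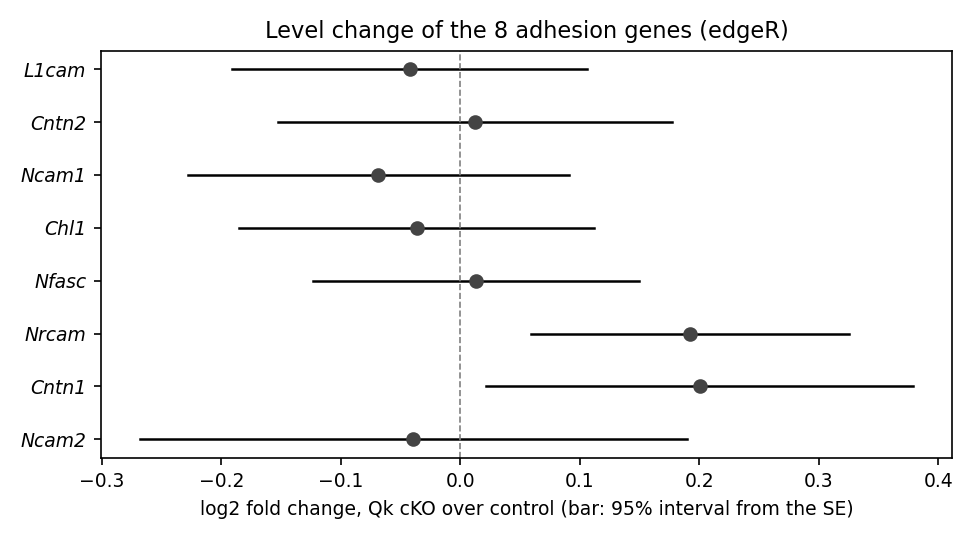
Log2 fold change of *Qk cKO* over control for the 8 genes, with 95% intervals calculated from the standard errors of edgeR. All 8 values lie between -0.07 and 0.20, and the bars of *Nrcam* and *Cntn1* do not reach 0 although neither gene passed after adjustment over all genes.

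The second question was whether the exons of these genes were used differently. Inclusion (*I*) is the share of junction tags that include the exon or site (the junctions on both sides of an exon being averaged), and Δ*I* is control minus *Qk cKO*, so a positive Δ*I* means less inclusion without *Qk*. Of the 30 events, 12 belonged to *Nrcam*, 9 to *Nfasc*, 4 to *Ncam1*, 3 to *Chl1* and 2 to *Cntn2*. No event of *L1cam*, *Ncam2* or *Cntn1* was among those quantified. In 22 events the coverage, the smallest sum of junction tags by isoform or group, reached 20 tags, and 3 of these (13.6%) were called by Fisher's exact test, beside 7.5% of 11500 events tested. All 3 were cassette exons of *Nrcam*, and 9.28% of the 4600 cassette exons tested were called. All 3 also had an absolute Δ*I* of at least 0.1, and 3.3% of all events tested were both called and of that size. Fisher's exact test takes every tag as independent and leaves out the spread between embryos, which edgeR includes when it tests whether the ratio of the isoforms depends on genotype (the edgeR interaction). The latter called 2 of the 22 events, both among these 3, beside 0.557% of all events. The paper lists *Nrcam* among its genes with Qki-regulated alternative exons, and the 8 genes were chosen with earlier results known. Their shares are therefore no independent comparison with all events.

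The *Nrcam* 57 nt exon (44545379 to 44545435, 19 codons, between introns of 483 and 1796 nt) was included at 0.989 and 0.949 in the controls and at 0.721 and 0.643 in *Qk cKO*. Inclusion was thus close to complete in both controls and lower in both *Qk cKO* embryos. The skipping junction held 1.66 and 7.04 tags in the controls and 50.6 and 60.7 in *Qk cKO*. The mean inclusion fell from 0.969 ± 0.029 to 0.682 ± 0.056 (SD, n = 2 each), a Δ*I* of 0.287 (Fisher's exact test, FDR = 6.53e-21; edgeR interaction, FDR = 0.0244). Of all events tested, 87 had a larger absolute Δ*I*.

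The *Nrcam* 30 nt exon (44566840 to 44566869, 10 codons, between introns of 427 and 1674 nt) moved the other way. It was included at 0.766 and 0.777 in the controls and at 0.960 and 0.946 in *Qk cKO*, so that both *Qk cKO* embryos were nearly at full inclusion. Skipping tags numbered 52.2 and 59.0 in the controls and 12.96 and 18.06 in *Qk cKO*. The mean rose from 0.772 ± 0.008 to 0.953 ± 0.010 (SD, n = 2 each), a Δ*I* of -0.181 (Fisher's exact test, FDR = 1.86e-17; edgeR interaction, FDR = 0.0148).

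The *Nrcam* 18 nt exon (44535057 to 44535074, 6 codons, between introns of 2397 and 2176 nt) was included at 0.363 and 0.393 in the controls and at 0.478 and 0.483 in *Qk cKO*. The groups did not overlap, and by junction tags skipping was the more frequent form in every sample. The isoform tags used in Fisher's exact test gave the other order in *Qk cKO*. They numbered 148.6 and 128.8 with the exon against 142.4 and 121.2 without it. The Δ*I* of -0.104 passed Fisher's exact test (FDR = 0.0461) but not the edgeR interaction (p = 0.0549, FDR = 0.566). The Fisher call was also lost without control replicate 1 (FDR = 0.547), without *Qk cKO* replicate 1 (FDR = 0.154) and without *Qk cKO* replicate 2 (FDR = 0.135).

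**Figure D3:**
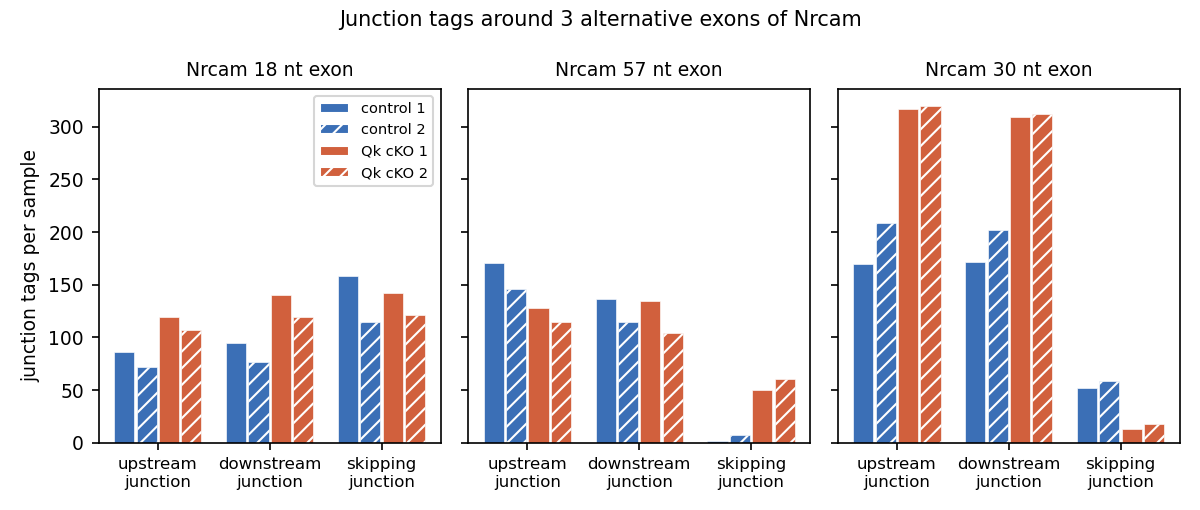
Junction tags per sample on the upstream, downstream and skipping junctions of the *Nrcam* 18, 57 and 30 nt exons, in bars from 0 for each of the 4 samples. The skipping junction of the 57 nt exon rises from 1.66 and 7.04 tags to 50.6 and 60.7, and that of the 30 nt exon falls from 52.2 and 59.0 to 12.96 and 18.06.

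All 3 exon lengths are multiples of 3. In the annotation, 4 transcripts contain the 57 nt exon, whatever the exons beside it, and 1 joins its neighbours directly. The corresponding numbers are 2 and 2 for the 30 nt exon, and 5 and 6 for the 18 nt exon. A transcript that lacks the exon and does not join these neighbours is in neither number. The 57 and 30 nt exons passed both tests in opposite directions within the same gene. As given above, *Fabp7*, *Slc1a3* and markers of the hypothalamus differed between the groups, while the radial glia markers *Pax6*, *Hes1*, *Nes* and *Vim* were not called. The part of cell composition in the *Nrcam* exons was not tested.

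The other 6 tested *Nrcam* events were not called. Among them the 36 nt exon was included at 0.405, 0.419, 0.366 and 0.528 in control 1, control 2, *Qk cKO* 1 and *Qk cKO* 2, and the 153 nt exon at 0.270, 0.229, 0.258 and 0.211. For the 36 nt exon both controls lay between the *Qk cKO* embryos, and for the 153 nt exon the groups overlapped. The upstream junction of the 153 nt exon held 2.0, 0.0, 1.0 and 2.0 tags in the same order, and its downstream junction 27.0, 28.0, 39.0 and 33.0. Its inclusion is therefore the average of a nearly unused junction and a used one.

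In *Nfasc* none of the 5 tested events was called. Its best covered events were a pair of tandem cassettes over the same span, with a coverage of 276 tags each. Their inclusion was 0.290 and 0.230 in the controls against 0.342 and 0.348 in one, and 0.382 and 0.329 against 0.415 and 0.434 in the other. Both *Qk cKO* embryos were higher in each, but the Fisher FDR was 0.319 and 0.217, and the pair shares junction tags. The *Nfasc* 18 nt exon shown above was included at 0.990 and 0.931 in the controls and 0.933 and 0.969 in *Qk cKO*, with overlapping groups and a coverage of 19.1 tags, under the minimum for a test.

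In *Chl1* none of 3 tested exons was called. The 48 nt exon, the best covered, was included at 0.399 and 0.412 in the controls and at 0.331 and 0.463 in *Qk cKO*, with the controls between the *Qk cKO* embryos. The 162 nt exon was included at 0.812 and 0.861 against 0.801 and 0.785, the lowest p among the uncalled events (Fisher's exact test, p = 0.0254, FDR = 0.188).

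In *Ncam1* none of 3 tested events was called. The 801 nt exon, which lengthens the cytoplasmic tail in the largest transmembrane form of NCAM, was included at 0.289 and 0.366 in the controls and at 0.319 and 0.324 in *Qk cKO*. The *Qk cKO* values lay between the controls, at the highest coverage of all the events of these genes (1739 tags). The 30 nt exon, of the size of the VASE exon in the fourth immunoglobulin domain, was rarely used, at 0.0327 and 0.0242 in the controls and 0.0125 and 0.0234 in *Qk cKO*. *Ncam1* overlaps a noncoding gene on the annotation, and reads of overlapping genes cannot be told apart without strand. The same limit holds for *L1cam*, which overlaps the protein-coding genes *Avpr2* and *Arhgap4*. It also holds for *Chl1*, *Cntn1* and *Nfasc*, which overlap noncoding genes and, in *Chl1*, a pseudogene.

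In *Cntn2* a retained intron, with a coverage of 286 tags, was kept in 0.0708 and 0.0467 of tags in the controls and 0.0780 and 0.0702 in *Qk cKO*. The groups overlapped, and the event was not called (Fisher's exact test, FDR = 0.259). Without control replicate 1, 5 events of the 8 genes passed Fisher's exact test in place of 3: the *Nrcam* 57 and 30 nt exons, the *Ncam1* 801 nt exon, the *Chl1* 162 nt exon and this intron.

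**Figure D4:**
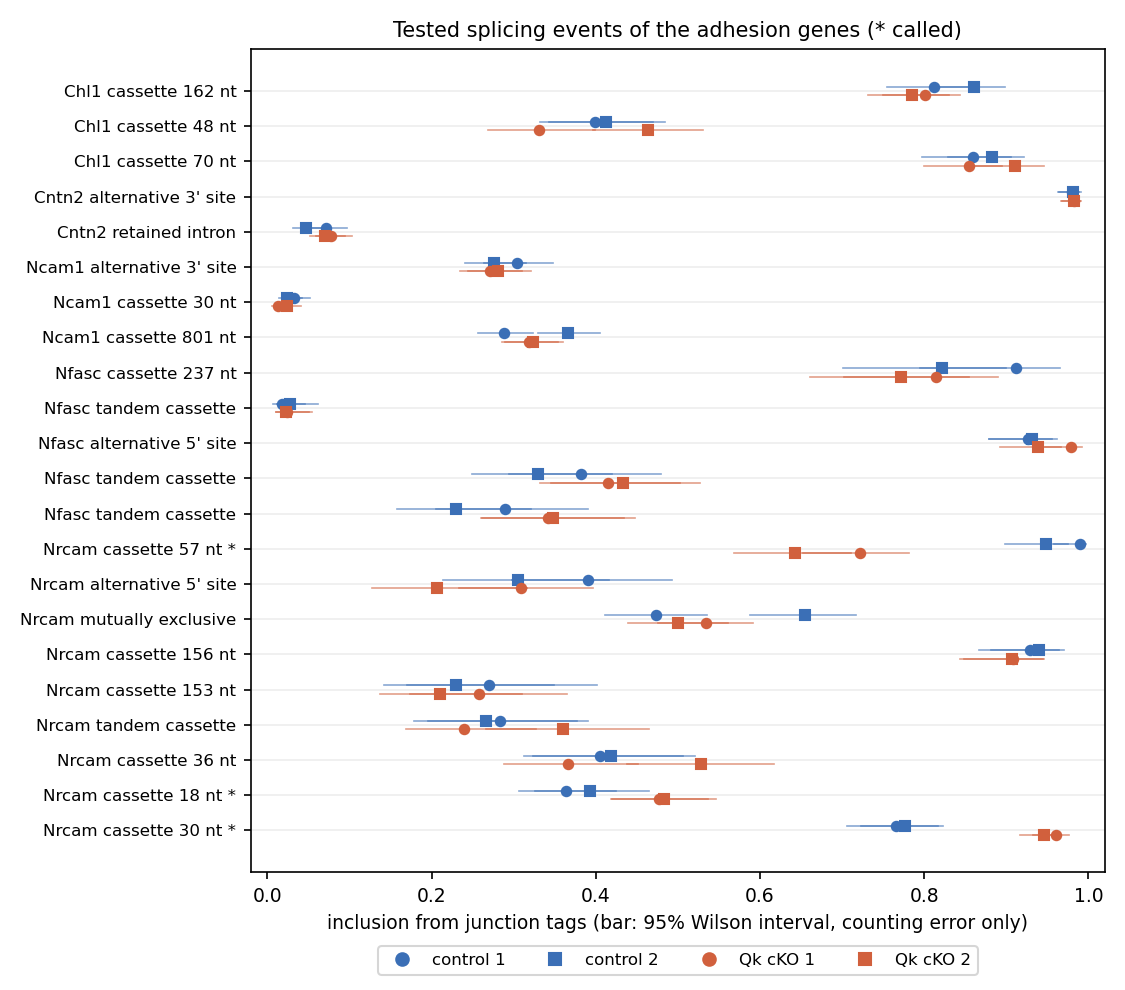
Inclusion from junction tags in each sample for the 22 tested events, with 95% Wilson intervals that cover counting error only, and an asterisk at the 3 called by Fisher's exact test. The *Nrcam* 57 and 30 nt exons are the rows where the 2 colours stand furthest apart, and in most other rows the intervals of the samples overlap.

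The inclusion of the groups did not overlap in 11 of the 22 events, against 37.9% of all events tested. The median absolute Δ*I* was 0.0293, beside 0.0256 over all events tested, and among the 19 uncalled events none exceeded 0.0872.

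The third question was how genes that act with these molecules behaved. Of 89 such genes, all tested by level, 3 were called, each lower in *Qk cKO*, beside 0.377% of all genes called lower. *Tnc*, tenascin-C, an extracellular matrix ligand of contactin-1, was at 16.0 and 17.5 RPKM in the controls and 12.5 and 13.2 in *Qk cKO* (log2 fold change -0.37 ± 0.06, SE; edgeR FDR = 0.00656). *Vcam1*, an immunoglobulin adhesion molecule of neural stem cells and vessels, was at 13.2 and 11.98 against 7.51 and 8.71 (-0.62 ± 0.11; edgeR FDR = 0.0153), and *Pvrl3*, nectin-3, at 7.30 and 6.92 against 4.72 and 5.47 (-0.47 ± 0.11; edgeR FDR = 0.0947). In all 3 the groups were separate. All 3 calls were lost when either control was left out and after a filter on low counts or on RPKM, and that of *Pvrl3* also without *Qk cKO* replicate 1 (edgeR FDR = 0.187) and in the exact test of edgeR (FDR = 0.158). Of the 8 radial glia markers given above, *Fabp7* and *Slc1a3* were also called lower. *Sox2* and *Hes5* were lower and not called, while *Pax6*, *Hes1*, *Nes* and *Vim* had log2 fold changes between -0.01 and 0.08. The part of cell composition in *Tnc*, *Vcam1* and *Pvrl3* was not tested.

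None of the 11 contactins and Caspr proteins, 15 cytoplasmic linkers and 12 genes of modification, shedding and signalling was called by level by edgeR. The ankyrins *Ank2* and *Ank3*, which bind the L1 family tail, had log2 fold changes of 0.01 ± 0.08 and -0.00 ± 0.08 (SE). *St8sia2*, which adds polysialic acid to Ncam1, was at 37.3 and 43.1 RPKM in the controls and 38.8 and 36.5 in *Qk cKO*, with overlapping groups.

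Of the 108 tested splicing events of these 89 genes, 8 (7.41%) were called by Fisher's exact test, a share close to that of all events by this test, and 4 had an absolute Δ*I* of at least 0.1. The edgeR interaction called 3 of the 108, beside 0.557% of all events. A cassette exon of *Tnc* was included at 0.987 and 0.985 in the controls and at 0.207 and 0.400 in *Qk cKO* (Δ*I* = 0.71; Fisher FDR = 5.41e-20, edgeR interaction FDR = 0.0116). Its coverage was 34.6 tags, and it fell under the minimum at a coverage of at least 50 and without *Qk cKO* replicate 1. In *Ptprz1*, a receptor phosphatase whose ectodomain binds contactin-1 and Nrcam, an alternative 5′ splice site was used at 0.748 and 0.769 against 0.414 and 0.433 (Δ*I* = 0.334; edgeR interaction FDR = 0.000552). In both, the 2 *Qk cKO* embryos were far below the controls.

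A cassette exon of *Numb*, an endocytic adaptor that acts on L1cam, was included at 0.324 and 0.400 in the controls and 0.631 and 0.658 in *Qk cKO* (Δ*I* = -0.287; Fisher FDR = 0.00582). A cassette exon of *Mcam*, an immunoglobulin adhesion molecule of vessels, was included at 0.931 and 0.907 against 0.799 and 0.808 (Δ*I* = 0.117; Fisher FDR = 0.0498). Neither passed the edgeR interaction (FDR = 0.351 and 0.372). The Fisher call of *Numb* was lost without control replicate 1 (FDR = 0.168), and that of *Mcam* without any 1 of the 4 samples (FDR between 0.105 and 0.376).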

How the data were processed

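Reads of 4 cortex libraries were aligned by the authors to mm10 with OLego and quantified with Quantas. The authors deposited an estimated count of tags and an RPKM for each gene, and estimated counts of tags for each isoform and junction of each splicing event. Tags were not assigned to strand. Gene tags were rounded, TMM normalized and tested with edgeR 4.0.16 (R 4.3.3; quasi-likelihood) over all genes with at least 1 tag, with Benjamini-Hochberg adjustment over all of them. Isoform tags were summed by group, rounded and compared by two-sided Fisher's exact test (scipy 1.17.1) at a coverage of at least 20, adjusted within each of 6 event types. Calls needed p below 0.01 and FDR below 0.1. Alternatives included DESeq2 1.42.0. Both kinds of test were tested on simulated data. The simulated splicing counts held no spread between embryos, so they cannot show how Fisher's exact test behaves where there is such spread. Exon positions, counted from 1, and sequences are from GENCODE on GRCm38, the build named mm10, and the sequences of introns were not analysed here. Older symbols in the files, such as *Pvrl3*, were matched by gene identifier.

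The members and gene lists were chosen with earlier results of these data known. All 8 members were named by level, and events were named when called or, for a gene with no called event, when best covered; of the 89 related genes, those called, or with a called event of absolute Δ*I* of at least 0.1, were named. Some exons were named in addition after their values were seen. They are the *Nrcam* 36, 144 and 153 nt, *Nfasc* 18, 45 and 51 nt, *Chl1* 162 nt and *Ncam1* 30 nt exons. The same holds for *Ank2*, *Ank3* and *St8sia2*. The labels and results text give 2 replicates a group, the methods 3. Samples of a group are separate embryos. The p-values of edgeR include the spread between them, and those of Fisher's exact test cover counting error only. For each called *Nrcam* exon, the nearest events of other genes by inclusion were named, and 1 of them is not reported here.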

Additional observations from a re-analysis of the deposited data

How the results depend on the processing

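No member was called by level under any of the 10 alternatives, and the *Nrcam* 57 and 30 nt exons stayed called under all 11 alternatives for splicing. In 1 of the 11, inclusion is the mean of the replicates, which changes Δ*I* but neither p nor FDR. That alternative could therefore not lose a call. Leaving out 1 sample leaves 1 in its group, assumed to vary like the others. It gave 2 to 5 called member events, 0 to 5 called related genes and 4 to 10 called related events. The related genes called fell from 3 to 0 with edgeR's filterByExpr and with a mean RPKM of at least 1 in both groups, and the related events called from 8 to 3 with the edgeR interaction and to 5 with a coverage of at least 50. None of the members' levels was called, and with each sample left out in turn the log2 fold change, whose sign turned at least once in these 5 genes, ranged from -0.0204 to 0.0435 for *Nfasc*, -0.11 to 0.0382 for *Chl1*, -0.159 to 0.0241 for *Ncam1*, -0.168 to 0.0971 for *Ncam2* and -0.103 to 0.115 for *Cntn2*. The cause was not tested. Over all genes, calls went from 110 to 57 with edgeR's exact test, 11 with filterByExpr, 10 with the RPKM minimum, and 0 to 428 with 1 sample left out; over all events from 862 to 64 with the edgeR interaction and to 488 without control replicate 1. Same-numbered samples deviated together with a correlation of 0.30 over all genes, -0.08 over autosomal genes and 0.01 over events, so the numbers were not taken to pair the embryos. With the replicate number as a block, 0 members, 3 related genes and 192 of all genes were called by level, and 3 member events, 8 related events and 903 of all events by splicing. The replicate number also divides the samples by sex, so this block covers sex as well. In 8 member events the smallest sum of junction tags by isoform or group was under 20, and they were not tested. A rare isoform can keep this sum small at an exon that is itself well covered. The *Nrcam* 144 nt exon had a coverage of 0.57, while its upstream and downstream junctions held 202 and 131 tags in control 1.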

Other observations

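The cassette exons of other genes whose inclusion in the 4 samples was nearest to that of the *Nrcam* exons were looked up among 2610 events of the same type with a coverage of at least 50. Nearest to the *Nrcam* 30 nt exon was a 162 nt exon of *Map4k4*, a kinase, at 0.756 and 0.716 in the controls and 0.937 and 0.934 in *Qk cKO* (Euclidean distance 0.0675), followed by a 150 nt exon of *Picalm*, a clathrin assembly protein (0.0709). These exons were chosen by their inclusion in the same samples, so no test of them is given. The nearest to the *Nrcam* 57 nt exon were farther away, in *Mynn* (0.157), *Prom1* (0.173) and *Fbxw5* (0.184). For the *Nrcam* 18 nt exon they were in *Pum2* (0.0382), *Slc38a10* (0.0402) and *Zc3h14* (0.044).

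Among the exons under the coverage minimum, the *Nfasc* 45 nt exon was included at 0.973 and 0.953 in the controls and 0.987 and 0.988 in *Qk cKO*, with 19.7 tags of coverage, and the *Nfasc* 51 nt exon at 0.00699 and 0.0408 against 0.0164 and 0, with 12.1 tags.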
